A study of Mus musculus with 9 samples.

Results

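The cell cycle and DNA replication genes examined here are 34 of the 54532 genes in the deposited count table. They were listed by gene symbol as well-known genes of DNA replication, nucleotide synthesis, and mitosis, with no threshold on a measured value, and all 34 were found and passed the filter on low counts. Bulk RNA-Seq was done on whole retina of wild-type C57BL/6 mice aged 17 days (P17), 9 animals that form 3 groups of 3. Control mice (1, 6, and 7, by the numbers in their labels) were kept in room air and are labelled as given DMSO. OIR mice (3, 5, and 6) went through oxygen-induced retinopathy, in which pups kept in high oxygen lose retinal capillaries and return at P12 to room air, where the retina is ischemic and forms new vessels. They are labelled as given DMSO, the vehicle, which was injected once into the eye at P12. Treated OIR mice (2, 5, and 10) went through the same procedure with a single intraocular injection at P12 of 32-134D, a small-molecule inhibitor of hypoxia-inducible factors. The dose is 70 ng in one label and 70 ng/µl in another. Each library is whole retina, so a dividing cell type that makes up little of the tissue adds little to the values. The 5 rod genes used to check the tissue (Sag, Gnat1, Pde6b, Nrl, and Pdc) summed to between 17311 and 29702 CPM (counts scaled to library size with TMM factors) in each mouse.

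Cells about to copy their DNA load a ring-shaped helicase of MCM proteins at replication origins, make deoxynucleotides with ribonucleotide reductase and thymidine enzymes, and clamp the polymerase to DNA with PCNA. They then enter mitosis under CDK1 and its cyclins, align chromosomes with kinesins and kinetochore proteins under checkpoint control, and divide after the anaphase-promoting complex marks cyclins for destruction. Neurons and photoreceptors of the mouse retina have left the cycle by the age studied, while endothelial cells, glia, and microglia keep the ability to divide. Many mitotic genes are known to be held silent in resting cells through a promoter element called CHR, bound by the DREAM complex, whereas many replication genes carry E2F elements.

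Promoters are shown for members whose levels differed widely between mice, and for Mcm6 as a replication gene. RefSeq sequences on GRCm38.p6, from 250 bases before to 50 bases after the annotated start, were matched for 28 of the 34 members, with 30 promoters in all. The letters TTTGAA or TTCGAA, the core of the CHR element, were searched on both strands and were present in 18 of the 30, against 19.2% of the 32851 promoters in the table. They stood in 16 of 20 promoters of mitotic members and in 2 of 10 of replication and nucleotide synthesis members. The letters CCAAT, the element bound by NF-Y, were in 26 of the 30, against 37.4% of all promoters. Any of TTTCCCGC, TTTGGCGC, TTTGCCGC, or TTTCGCGC, which are E2F sites, was in 5 of the 30 (Cdk1, Mcm3, Mcm5, Mcm6, and Mcm7), against 2.26%. A match is a description of the letters, not of a factor bound there. The 250 bases before the start are printed on the gene's strand, with these motifs in capitals, for Top2a (chr11:99024190-99024439), Mki67 (chr7:135716380-135716629), Cdk1 (chr10:69352913-69353162), and Mcm6 (chr1:128359706-128359955), all on the minus strand.
Top2a: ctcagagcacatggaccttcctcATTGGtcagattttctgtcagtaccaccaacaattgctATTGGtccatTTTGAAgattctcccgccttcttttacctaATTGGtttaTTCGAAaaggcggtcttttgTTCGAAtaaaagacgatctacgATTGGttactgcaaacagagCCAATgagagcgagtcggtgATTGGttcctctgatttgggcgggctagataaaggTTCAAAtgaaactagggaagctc
Mki67: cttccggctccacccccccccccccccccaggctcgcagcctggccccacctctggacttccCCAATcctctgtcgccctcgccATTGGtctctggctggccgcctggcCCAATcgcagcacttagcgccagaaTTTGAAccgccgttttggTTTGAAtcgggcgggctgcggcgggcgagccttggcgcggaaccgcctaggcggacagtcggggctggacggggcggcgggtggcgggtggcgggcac
Cdk1: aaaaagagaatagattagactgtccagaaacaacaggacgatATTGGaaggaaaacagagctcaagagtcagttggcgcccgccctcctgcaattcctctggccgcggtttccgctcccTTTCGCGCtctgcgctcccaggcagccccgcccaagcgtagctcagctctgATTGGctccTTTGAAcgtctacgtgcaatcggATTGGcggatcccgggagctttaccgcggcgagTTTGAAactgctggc
Mcm6: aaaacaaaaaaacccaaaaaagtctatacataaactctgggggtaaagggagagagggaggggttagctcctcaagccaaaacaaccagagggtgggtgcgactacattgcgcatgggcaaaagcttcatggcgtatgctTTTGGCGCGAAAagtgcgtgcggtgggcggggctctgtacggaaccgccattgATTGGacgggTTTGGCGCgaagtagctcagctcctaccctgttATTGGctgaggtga
Top2a held 4 matches to the CHR core and 6 to CCAAT, and Mki67 held 2 and 3. In Mcm6, E2F words overlapped each other at 1 place, 99 to 110 bases before the start, and no CHR core was found in the window. The start is RefSeq's. For Cdk1 it differs from the deposited gene, so the last 26 bases printed, with the TTTGAA nearest the start, lie inside that gene.

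Libraries that stood apart are described before the comparisons. Control mouse 1 differed from the other control mice in most members. It had the highest CPM of all 9 mice for 15 of the 34, and it was above both other control mice for 29, whereas it was above both for 31.4% of the 17540 genes tested. The difference in log2 CPM between control mouse 1 and the mean of control mice 6 and 7 had a median of 1.52 over the members and of -0.04 over all genes tested. Control mouse 7 was lowest of the 9 for 20 members and control mouse 6 for 9. The share of all genes for which each mouse was highest or lowest is not given here. Summed over the members without Pcna, which alone held 26.8% to 43.0% of the members' CPM, the level was 212, 111, and 105 CPM in control, 152, 158, and 195 CPM in OIR, and 187, 148, and 158 CPM in treated OIR retinas. Here and in what follows, the 3 values of a group stand in the order of its mice, which is 1, 6, and 7 (control), 3, 5, and 6 (OIR), or 2, 5, and 10 (treated OIR). Total counts ran from 16028731 to 27213184, the highest in control mouse 1.

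**Figure D1:**
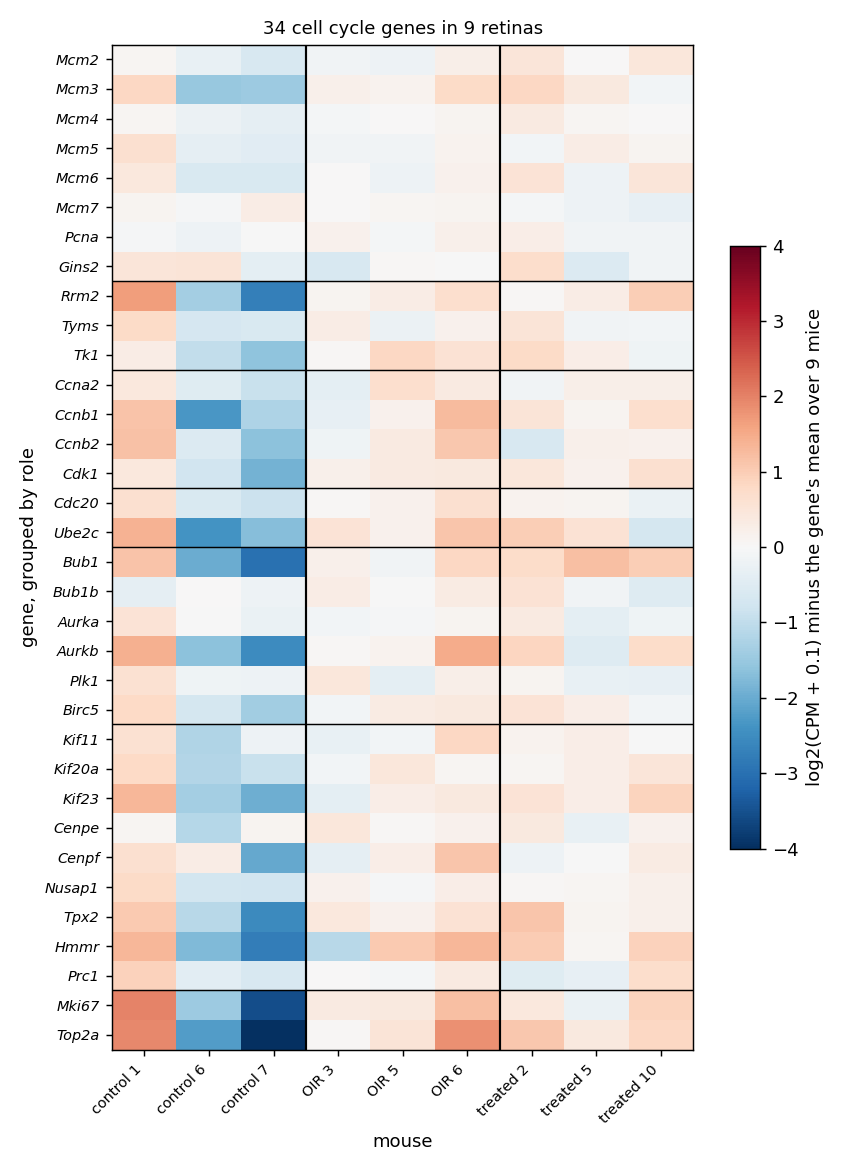
Heat map of the 34 members (rows, grouped by role) in the 9 mice (columns), colored by log2(CPM + 0.1) minus the gene's mean over the 9 mice. Control mice 6 and 7 are blue for most mitotic genes and Rrm2, control mouse 1 is red for the same genes, and the rows of Pcna, Mcm7, and Mcm4 are near white throughout.

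Control mouse 1 was also high in genes of microglia and macrophages. All 10 markers of that list had a count in every mouse and were higher in control mouse 1 than in the other control mice, and their summed CPM was 466, 219, and 114 in control, 233, 320, and 471 in OIR, and 169, 133, and 129 in treated OIR retinas. Control mouse 1 and OIR mouse 6, the highest in these markers, were also the highest in the summed members, but the treated OIR mice were low in the markers and not in the members. In 7 macrophage, matrix, and smooth muscle genes chosen after the values of control mouse 1 were seen (Spp1, Mmp12, Lyz2, Gpnmb, Itgax, Col1a1, and Acta2), the summed CPM was 3380, 265, and 60.2 in control, 309.9, 672, and 1303 in OIR, and 541, 69.4, and 121 in treated OIR retinas. The matrix gene Col1a1 was at 487, 56.9, and 1.22 CPM and the secreted protein gene Spp1 at 1675, 48.4, and 24.5 CPM in control mice. The 3 astrocyte markers (Gfap, Pax2, and Pdgfra) summed to 244, 187, and 81.4 CPM in control, 290.4, 351, and 742 CPM in OIR, and 451, 222, and 136 CPM in treated OIR retinas. Most of each sum was Gfap, which was at 217 CPM in control mouse 1, the highest control mouse, and at 703 CPM in OIR mouse 6, the highest of all. Pdgfra was instead highest in OIR mouse 3 (58.3 CPM) and, among control mice, in mouse 6 (28.6 CPM). Pax2 was highest in OIR mouse 5 (3.17 CPM) and, among control mice, in mouse 1 (1.29 CPM). The part of these cells in the members' levels was not tested. The 12 endothelial markers summed to 325 to 366 CPM in control, 478 to 589 CPM in OIR, and 394 to 560 CPM in treated OIR mice, and control mouse 1 had the lowest sum. Kdr was the largest part of the sum in each mouse and, like Flt1, was highest in OIR mouse 6 (281 CPM). Not every marker followed the sum. Cldn5 was lowest in treated OIR mouse 2 and OIR mouse 6, at 10.4 and 17.4 CPM, against 50.7 to 111 CPM in the others. Cdh5 and Tek were lowest in the same mice. In treated OIR mouse 2 the 15 lens markers summed to 145613 CPM, against 14.8 to 1193 CPM in the other 8 mice. This mouse had the highest CPM for 8 members, and whether the lens RNA bears on that was not tested. The 7 markers of retinal progenitors summed to only 14.4 to 18.1 CPM in control, 9.84 to 14.8 CPM in OIR, and 15.6 to 33.8 CPM in treated OIR mice, with Olig2 at 0 counts in all mice but treated OIR mouse 10. They did not move together. Neurog2 alone was at 31.0 CPM in treated OIR mouse 2, the library with lens RNA. Hes5 was at 5.60 to 8.51 CPM in control and lower, at 1.17 to 3.50 CPM, in OIR and treated OIR mice. In whole tissue, fewer cells of a type and less RNA per cell cannot be told apart.

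**Figure D2:**
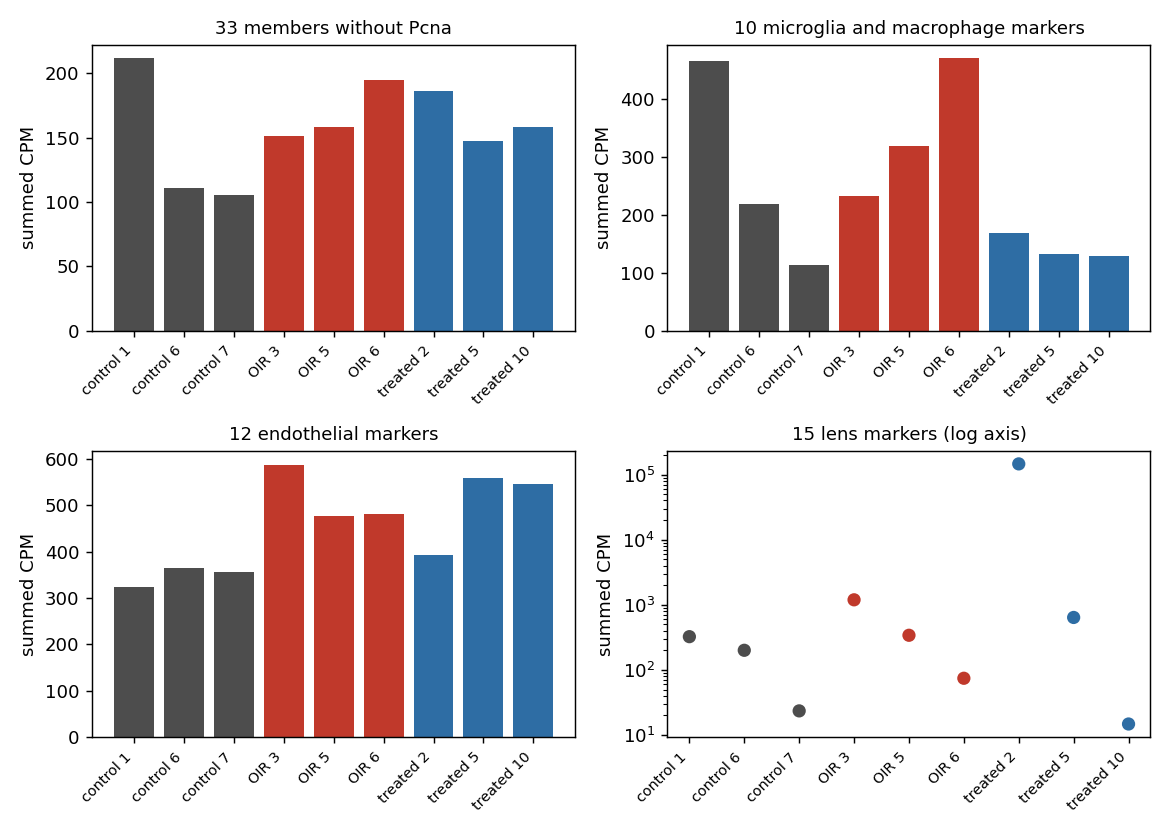
Summed CPM per mouse (bars from 0, gray for control, red for OIR, blue for treated OIR) of the members without Pcna, of 10 microglia and macrophage markers, and of 12 endothelial markers, with 15 lens markers as points on a log axis. Control mouse 1 (212 CPM) and OIR mouse 6 (195 CPM) lead the members and also the microglia and macrophage markers (466 and 471 CPM), and treated OIR mouse 2 stands alone in lens markers.

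Across all 9 mice the members spread more widely than other genes. The SD of log2 CPM had a median of 0.61 over the members and 0.31 over all genes tested. Within the 3 control mice these medians were 0.93 and 0.21, and within the 6 OIR and treated OIR mice 0.37 and 0.26. The excess was thus greatest among the control mice.

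The levels of the members were low except for a few replication genes. Per kilobase of gene (RPKM), Pcna (chromosome 2, 132249162 to 132253314, minus strand), the sliding clamp of DNA polymerase, had the highest median over the 9 mice at 32.3, followed by Mcm7 at 5.24, Bub1b at 4.01, Mcm4 at 3.91, and Ccna2 at 3.26. Cenpf, a kinetochore protein, had the lowest at 0.0876. Median RPKM was 0.343 and 0.326 for the other pair described in most detail, Mki67 and Top2a.

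The first comparison asked whether retinas with OIR carried more RNA of the division program than room-air retinas. No member passed an adjusted p of 0.05 (edgeR's quasi-likelihood test, Benjamini-Hochberg over 17540 genes), where 0.941% of all genes tested did. No member had an unadjusted p under 0.05 either, against 23.8% of all genes, and DESeq2 on the same mice also called 0, against 11.4% of all genes, with 0 at an unadjusted p under 0.05, against 24.6%. Limma-voom, which gives each mouse a quality weight, called 0, against 13.1%, with 12 higher at an unadjusted p under 0.05, against 31.3% of all genes in either direction, and its median log2 fold change over the members was 0.79. The fitted log2 fold change was above 0 for 28 of the 34, against 53.5% of all genes, with a median of 0.33 against 0.03 over all genes. No member's OIR mice lay wholly above or below the control mice, while 15.9% of all genes did so upward and 17.2% downward.

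Among proliferation markers, Mki67 (Ki-67, a protein coating mitotic chromosomes) was at 10.6, 0.892, and 0.129 CPM in control, 3.31, 3.45, and 6.03 CPM in OIR, and 3.49, 2.15, and 4.93 CPM in treated OIR mice. Top2a (topoisomerase II alpha, which untangles sister chromosomes) was at 7.89, 0.347, and 0 CPM in control, 2.09, 2.94, and 7.42 CPM in OIR, and 4.31, 2.64, and 3.65 CPM in treated OIR mice. For both genes control mouse 1 was the highest of all mice and control mice 6 and 7 the lowest, so the control group enclosed every other value. The log2 fold change between OIR and control was 0.11 ± 1.03 (SE, n = 3 and 3) for Mki67, adjusted p = 0.96 by edgeR, and 0.56 ± 1.19 for Top2a, adjusted p = 0.82 by edgeR. The 0 counts of Top2a in control mouse 7 allow up to 0.193 CPM (3 counts of that library, for counting error only).

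Of the 3 nucleotide synthesis genes, Tk1, the thymidine kinase of dividing cells, had the smallest p of any member in this comparison. Its level was 2.20, 0.842, and 0.516 CPM in control, 1.82, 3.22, and 2.65 CPM in OIR, and 3.04, 2.15, and 1.54 CPM in treated OIR mice. Control mouse 1 stood among the OIR mice and the other control mice below all of them. The log2 fold change was 1.07 ± 0.52 (SE, n = 3 and 3, edgeR adjusted p = 0.25). Tk1 lies wholly inside the span of an annotated gene on the other strand, and whether counting used strand is not given in the sources used here. Tyms, thymidylate synthase, and Rrm2, the small subunit of ribonucleotide reductase, had log2 fold changes of 0.09 ± 0.43 and 0.03 ± 0.92 (SE).

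All 4 members of the cyclin and CDK1 group had log2 fold changes above 0, and none passed the test. Cdk1 (chromosome 10, 69335146 to 69352938, minus strand), the kinase that starts mitosis, was at 2.97, 1.24, and 0.516 CPM in control, 2.57, 2.84, and 2.92 CPM in OIR, and 3.04, 2.51, and 3.49 CPM in treated OIR mice. The OIR and treated OIR mice lay close together, with control mouse 1 among them and control mice 6 and 7 below. Its log2 fold change in OIR was 0.78 ± 0.51 (SE, edgeR adjusted p = 0.38). Ccna2, cyclin A2 of S phase and early mitosis, had values of 15.4, 8.12, and 6.06 CPM in control and 8.66, 18.04, and 14.7 CPM in OIR mice, with a log2 fold change of 0.48 ± 0.36 (SE). Ccnb1 and Ccnb2, the B-type cyclins that activate CDK1, had log2 fold changes of 0.61 ± 0.86 and 0.38 ± 0.68 (SE).

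In the checkpoint and kinetochore groups, Bub1b and Cenpe were among the members with the smallest p. Bub1b, the BubR1 checkpoint kinase, was at 13.6, 17.8, and 15.02 CPM in control and 21.5, 17.2, and 22.0 CPM in OIR mice, and here control mouse 1 was the lowest control mouse. Its log2 fold change was 0.39 ± 0.26 (SE, edgeR adjusted p = 0.41). Cenpe, the kinesin that carries chromosomes to the spindle middle, was at 4.71, 1.98, and 4.90 CPM in control and 6.20, 4.61, and 5.13 CPM in OIR mice, and its log2 fold change was 0.46 ± 0.35 (SE, edgeR adjusted p = 0.47). Control mouse 6 alone was low for Cenpe. Over the 9 spindle, kinetochore, and cytokinesis genes the log2 fold changes ran from -0.03 for Prc1, a bundler of spindle midzone microtubules, to 0.78 for Hmmr, a spindle assembly protein, with 7 above 0. Over the 6 kinase, checkpoint, and passenger genes they ran from -0.15 for Aurka to 0.61 for Aurkb, with 5 above 0.

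In the replication group 5 of 8 members had log2 fold changes above 0, with a median of 0.17. Pcna was at 77.6, 68.8, and 79.2 CPM in control and 89.2, 75.3, and 91.6 CPM in OIR mice, which overlapped. Its log2 fold change was 0.18 ± 0.13 (SE, edgeR adjusted p = 0.43; 95% interval -0.11 to 0.48). Gins2, a subunit of the GINS complex of the replication fork, had the lowest value of all members in this comparison at -0.46 ± 0.41 (SE), and it lies inside the span of an annotated gene on the other strand.

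**Figure D3:**
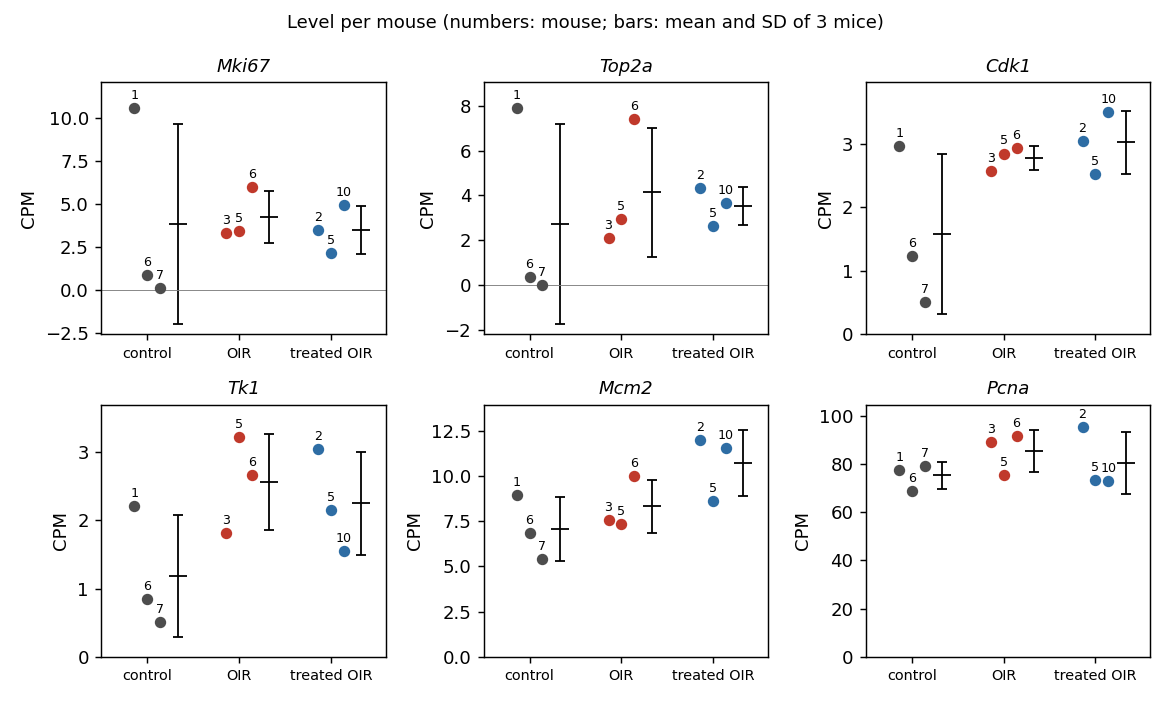
CPM of Mki67, Top2a, Cdk1, Tk1, Mcm2, and Pcna in each mouse (points, with the mouse's number), by group, with the mean and SD of 3 mice as a bar to the right. In Mki67, Top2a, Cdk1, and Tk1 control mice 6 and 7 lie below every other mouse, while control mouse 1 lies among or above the OIR mice, and Pcna overlaps between all groups.

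The second comparison set treated OIR against the same 3 control mice, so its values are not independent of the first. No member passed an adjusted p of 0.05 in edgeR, where 0.0228% of all genes tested did, 2 members had an unadjusted p under 0.05, against 18.6% of all genes, and DESeq2 on the same mice called 0, against 4.7%, with 2 at an unadjusted p under 0.05, against 19.5%. Limma-voom called 1 member, Bub1, a checkpoint kinase, against 5.28% of all genes, with 12 higher and 2 lower at an unadjusted p under 0.05, against 26.3% of all genes, and its median over the members was 0.61. The log2 fold change was above 0 for 27 of the 34, against 51.4% of all genes, and the median was 0.32 against 0.01. The members called by p alone were a higher Mcm2 and a lower Mcm7, both subunits of the replicative helicase.

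Mcm2 was at 8.97, 6.84, and 5.42 CPM in control, 7.59, 7.37, and 10.03 CPM in OIR, and 11.99, 8.65, and 11.6 CPM in treated OIR mice. The treated OIR mice overlapped control only by mouse 5 against control mouse 1. The log2 fold change against control was 0.60 ± 0.24 (SE, n = 3 and 3, edgeR adjusted p = 0.24). Mcm7 was at 24.8, 22.1, and 28.05 CPM in control, 23.2, 24.3, and 24.4 CPM in OIR, and 21.8, 19.99, and 18.04 CPM in treated OIR mice. Each treated OIR mouse was below each control mouse and each OIR mouse. Its log2 fold change against control was -0.33 ± 0.13 (SE, edgeR adjusted p = 0.23), and it was the only member without overlap, where 12.2% of all genes did not overlap downward. The Mcm7 gene overlaps 2 protein-coding genes on the other strand and holds 3 microRNA genes.

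The other helicase subunits had values above 0 in this fit. The log2 fold changes of treated OIR against control were 0.32 ± 0.17 for Mcm4, 0.48 ± 0.33 for Mcm6, 0.67 ± 0.61 for Mcm3, and 0.07 ± 0.31 for Mcm5 (SE), none past the test. Mcm6 was at 12.3, 5.90, and 5.93 CPM in control and 13.3, 7.85, and 12.7 CPM in treated OIR mice, and treated OIR mouse 2, the library with lens RNA, was the highest. Cdk1 and Tk1 had log2 fold changes of 0.90 ± 0.51 and 0.88 ± 0.53 (SE), and Mki67 and Top2a of -0.16 ± 1.04 and 0.32 ± 1.198 (SE).

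The third comparison, treated OIR against OIR, asked whether 32-134D altered these genes in the ischemic retina. No member passed an adjusted p of 0.05 in edgeR, where 0% of all genes tested did, and no member had an unadjusted p under 0.05, against 4.69% of all genes. DESeq2 on the same mice called 0, against 0.188%, with 0 at an unadjusted p under 0.05, against 4.96%. Limma-voom called 0, against 0.0057%, with 1 lower at an unadjusted p under 0.05, against 13.9% in either direction. The log2 fold change was above 0 for 14 members, against 51.3% of all genes, and below 0 for 20, with a median of -0.04 against 0.01 over all genes. Mean log2 CPM over the 34 members averaged 1.94 ± 0.30 for OIR and 1.93 ± 0.16 for treated OIR (SD over 3 mice each), a difference of -0.01.

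The precision of this comparison differed by gene. The 95% interval of the log2 fold change was -0.38 to 0.21 for Pcna, -0.23 to 0.52 for Mcm4, and -0.18 to 0.91 for Mcm2, whose value was 0.37 ± 0.24 (SE). It was -2.63 to 2.09 for Mki67 and -2.93 to 2.46 for Top2a, so these data allow large changes of both genes in either direction. Mcm7 had the smallest p, with a log2 fold change of -0.27 ± 0.13 (SE), and was the only member whose groups did not overlap, against 5.39% of all genes downward. Plk1, a kinase of mitotic entry, was at 6.95, 3.82, and 6.07 CPM in OIR and 5.52, 4.17, and 4.01 CPM in treated OIR mice, a log2 fold change of -0.30 ± 0.32 (SE). Ccnb2 was at 1.44, 2.14, and 3.60 CPM in OIR and 1.01, 1.90, and 1.85 CPM in treated OIR mice, a log2 fold change of -0.59 ± 0.69 (SE), and both genes overlapped between the groups.

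Both comparisons with control were repeated without control mouse 1, a choice made with its values known. The direction then turned from below to above 0 for 4 members in OIR (Mcm5, Aurka, Kif23, and Prc1) and 5 in treated OIR (Ccnb2, Aurka, Plk1, Prc1, and Mki67). Leaving out the highest control mouse raises the fold changes by construction, and 2 control mice leave little to show how control retinas vary. The median log2 fold change over the members was then 1.02 in OIR and 0.90 in treated OIR, with 32 of 34 above 0 in each, against 53.4% and 52.5% of all genes. In edgeR, 20 members had an unadjusted p under 0.05 in OIR, all higher, where 11% of all genes were called higher by that rule, and 21 in treated OIR, against 8.2%. None passed an adjusted p of 0.05 in either, where 0% of the 17917 genes then tested did. The OIR mice all lay above control mice 6 and 7 for 25 members, against 23.8% of all genes, and the treated OIR mice for 24, against 18.9%.

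The calls without control mouse 1 depended on the tool. DESeq2 fitted to the groups compared called 12 members higher in OIR, where it called 6.62% of all genes higher, and 6 in treated OIR, against 1.09%. Limma-voom called 3 (Mcm3, Bub1, and Tpx2) in OIR, against 2.04%, and 0 in treated OIR, against 0.0558%. With treated OIR mouse 2 also left out, edgeR called 10 members higher in OIR, where it called 4.59% of all genes higher, and 0 in treated OIR, against 0.00561%. Mcm3, a helicase subunit, was named here after its values were seen. It was at 7.23, 1.34, and 1.42 CPM in control, 4.65, 4.43, and 6.88 CPM in OIR, and 7.23, 5.27, and 3.70 CPM in treated OIR mice. Without control mouse 1 its log2 fold change in OIR was 1.94 ± 0.38 (SE, n = 2 and 3, edgeR adjusted p = 0.086), and with it 0.65 ± 0.61 (SE, edgeR adjusted p = 0.55). Mki67 and Top2a were at 2.99 ± 0.72 and 4.42 ± 0.97 (SE) without it, with edgeR adjusted p = 0.10 and 0.090.

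The members called by DESeq2 in OIR without control mouse 1, also named with their values known, were Top2a, Mcm3, Mki67, Ube2c, Tpx2, Rrm2, Tk1, Aurkb, Cdk1, Bub1, Hmmr, and Ccnb1, and those called in treated OIR were Top2a, Mcm3, Bub1, Rrm2, Tpx2, and Kif23. Rrm2 was at 4.75, 0.495, and 0.129 CPM in control, 1.55, 1.77, and 2.34 CPM in OIR, and 1.46, 1.78, and 2.88 CPM in treated OIR mice. Ube2c, which hands ubiquitin to cyclins, was at 4.05, 0.198, and 0.387 CPM in control, 2.19, 1.68, and 3.33 CPM in OIR, and 3.04, 2.27, and 0.874 CPM in treated OIR mice. In both, control mouse 1 was the highest of all mice and control mice 6 and 7 the lowest. Aurkb was at 2.41, 0.198, and 0.0645 CPM in control, 0.855, 0.932, and 2.52 CPM in OIR, and 1.59, 0.552, and 1.44 CPM in treated OIR mice, with control mouse 1 and OIR mouse 6 close together at the top. Tpx2, which activates Aurora A on the spindle, was at 5.06, 1.04, and 0.322 CPM in control, 3.21, 2.70, and 3.60 CPM in OIR, and 5.20, 2.58, and 2.78 CPM in treated OIR mice, and treated OIR mouse 2 was at the level of control mouse 1.

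**Figure D4:**
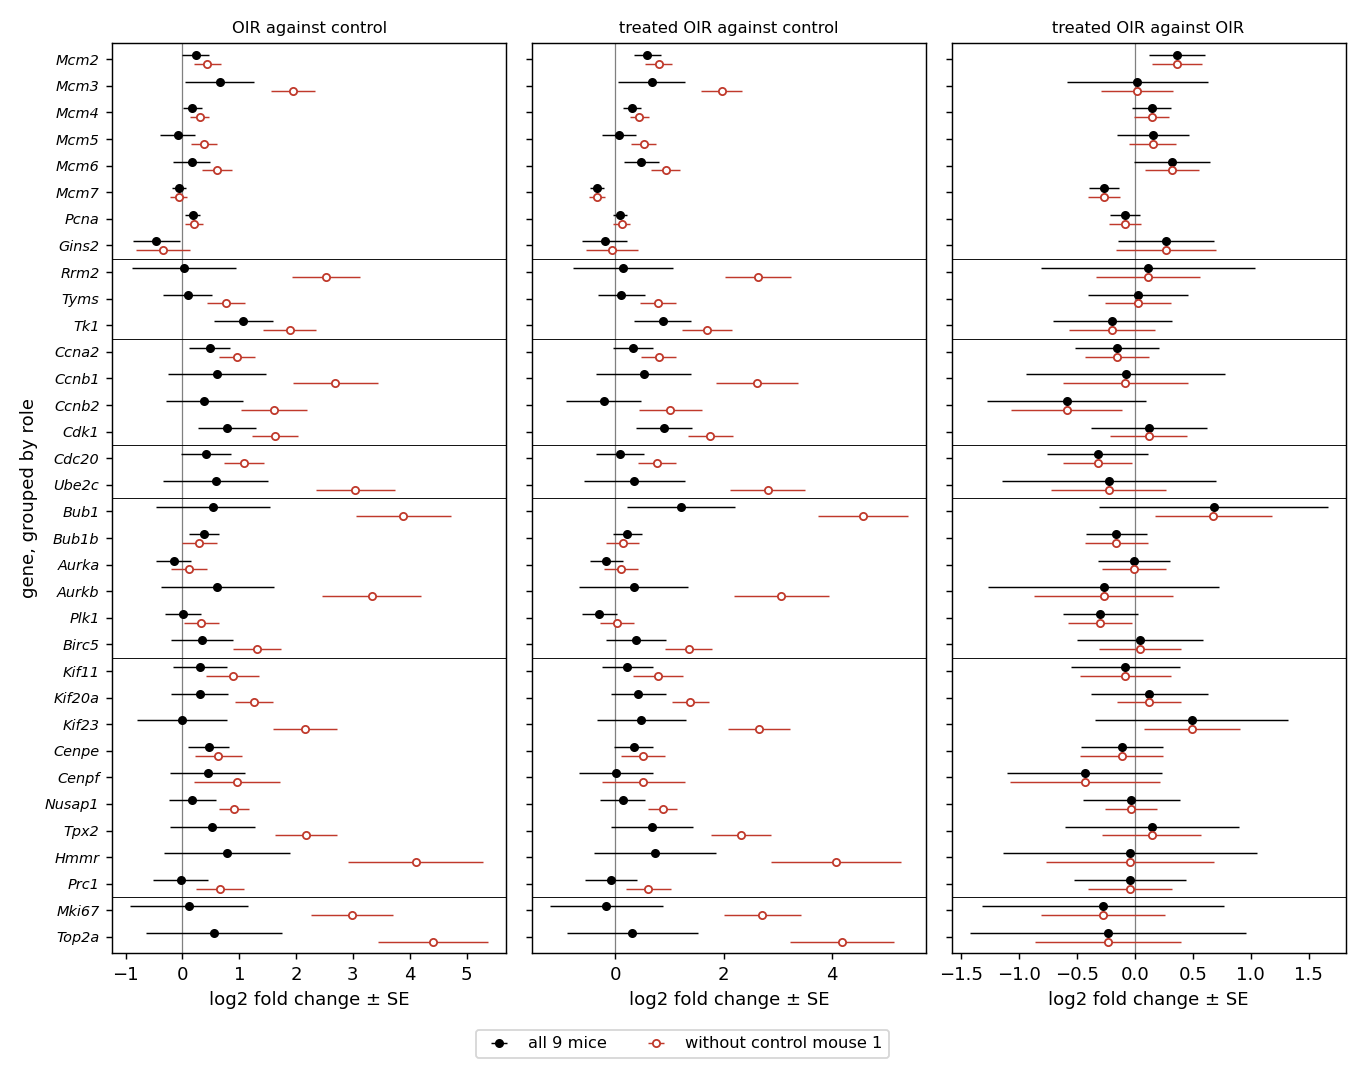
Log2 fold change ± SE (edgeR) of each member in the 3 comparisons, with all 9 mice (black) and without control mouse 1 (open red). The red points lie to the right of the black in both comparisons with control for Mki67, Top2a, Rrm2, Ube2c, and Aurkb, but near them for Pcna, Mcm7, and Bub1b, and they coincide in treated OIR against OIR. The red points of Bub1 and Hmmr rest on 2 counts in the remaining control mice.

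How far control mouse 1 and the OIR mice stood above control mice 6 and 7 is given by role as a description, with no test between roles. Among the 8 replication genes, the ratio of CPM in control mouse 1 to the mean of control mice 6 and 7 had a median of 1.38 and ran from 0.989 for Mcm7 to 5.25 for Mcm3, and the ratio of mean OIR to the same mice had a median of 1.27. Among the 4 cyclin and CDK1 genes the medians were 4.18 and 3.14, and for the anaphase-promoting complex partners Cdc20 and Ube2c, which time the exit from mitosis, 8.29 and 5.17. They were 3.24 and 3.77 for the 3 nucleotide synthesis genes, 2.79 and 1.89 for the 6 kinase, checkpoint, and passenger genes, and 2.95 and 1.99 for the 9 spindle, kinetochore, and cytokinesis genes. In each of these roles the range of the first ratio overlapped that of the replication genes. For Mki67 and Top2a, a role of only 2 genes, it did not, at 20.7 and 45.5, and their second ratio was 8.36 and 23.9. These ratios rest on 20 and 7 counts in all in control mice 6 and 7. Single genes of other roles also exceeded the replication genes in the first ratio. Among them were Rrm2 at 15.2 and Ube2c at 13.8, on 12 and 10 counts, so Mki67 and Top2a did not stand alone. Aurka, the spindle pole kinase, was at 1.61 and 1.09 times control mice 6 and 7. Bub1 and Hmmr each had 2 counts in all in control mice 6 and 7, and Aurkb, the catalytic subunit of the chromosomal passenger complex, had 5, so no ratio is given for them. Their ratios still enter the medians of their roles. Control mice 6 and 7 were both below the other 7 mice for 23 of the 34 members, against 7.46% of all genes tested, a count read from the same values as the ratios.

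Sex, read from Xist and Y chromosome genes, fell unevenly on the groups. The females were mouse 1 of control, mouse 3 of OIR, and mice 2 and 5 of treated OIR, and the others were male, so sex and control mouse 1 cannot be told apart among control mice. Mean log2 CPM over the members differed between OIR and control by -0.78 in females (1 and 1 mice) and by 1.45 in males (2 and 2 mice), and between treated OIR and control by -0.55 in females (2 and 1 mice) and by 1.32 in males (1 and 2 mice). With sex as a covariate edgeR called 0 members in each comparison. In the fit without it, 0.941%, 0.0228%, and 0% of all genes were called, and the share with it is not given here. The median log2 fold change over the members was then 0.46, 0.29, and -0.22, against 0.04, 0.02, and 0.01 over all genes.

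Other genes of the cycle were taken from 4 lists of 149 genes, of which 146 were tested. In OIR against control, 102 had a log2 fold change above 0, against 53.5% of all genes, and 1 passed an adjusted p of 0.05, beside 0.941% of all genes, and 17 were higher and 8 lower at an unadjusted p under 0.05, against 11.1% and 12.7% of all genes. The gene that passed was Btg2, an antiproliferative gene induced by p53, at 116, 114, and 117 CPM in control, 169, 168, and 179 CPM in OIR, and 171, 152, and 139 CPM in treated OIR mice. Control mouse 1 lay with the other control mice, and no OIR or treated OIR mouse reached the control range. Btg2 rose in OIR by 0.57 ± 0.10 on the log2 scale (SE, edgeR adjusted p = 0.041), and against control it was 0.41 ± 0.10 higher in treated OIR (SE, adjusted p = 0.12).

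By list, 10 of 15 CDK inhibitors and p53 arrest genes, 21 of 25 G1 to S regulators, 44 of 61 other mitotic genes, and 27 of 45 origin and fork genes had log2 fold changes above 0 in OIR. In treated OIR against control these counts were 12, 20, 42, and 25, with 0 past an adjusted p of 0.05 in edgeR, beside 0.0228% of all genes, and 19 higher and 7 lower at an unadjusted p under 0.05, against 10% and 8.6% of all genes. Treated OIR against OIR gave 71 of 146 above 0, against 51.3% of all genes, with 0 past an adjusted p of 0.05 in edgeR, beside 0% of all genes, and 2 higher and 0 lower at an unadjusted p under 0.05, against 4.69% in either direction. In OIR, Cdkn2d, the p19 inhibitor of CDK4 and CDK6, had a log2 fold change of -0.63 ± 0.13 (SE, edgeR adjusted p = 0.060).

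A pair of genes listed as mitotic had lower values in OIR and treated OIR than in control. Stmn1, stathmin, a microtubule regulator that neurons also express, was at 218, 218, and 288 CPM in control, 114, 96.7, and 83.2 CPM in OIR, and 67.7, 153, and 157 CPM in treated OIR mice. No OIR or treated OIR mouse reached the control range, and the log2 fold change in OIR was -1.30 ± 0.29 (SE, edgeR adjusted p = 0.064). Spc25, a kinetochore protein of the NDC80 complex, was at 110, 138, and 150 CPM in control, 60.2, 56.1, and 70.5 CPM in OIR, and 22.3, 56.4, and 54.7 CPM in treated OIR mice, again without overlap with control. Its log2 fold change in treated OIR was -1.57 ± 0.31 (SE, edgeR adjusted p = 0.10). Ndc80, Nuf2, and Spc24, of the same complex, were at 2.54 CPM or less in every mouse. Their OIR and treated OIR mice overlapped control. Whether the Spc25 RNA came from dividing cells was not tested.

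Rb1, the retinoblastoma protein that restrains E2F, was at 30.2, 30.8, and 33.9 CPM in control, 48.0, 40.8, and 41.5 CPM in OIR, and 39.6, 50.04, and 47.3 CPM in treated OIR mice. Each OIR and treated OIR mouse was above each control mouse. The log2 fold change of treated OIR against control was 0.53 ± 0.12 (SE, edgeR adjusted p = 0.11). In treated OIR against OIR the smallest p-values of these lists belonged to Cdkn1c, a CDK inhibitor, at 0.65 ± 0.28, to Pold2, a subunit of DNA polymerase delta, at 0.31 ± 0.13, and to Ncapd2, a condensin subunit, at -0.38 ± 0.18 (log2 fold change ± SE). Cdkn1c was at 83.5 CPM in treated OIR mouse 2, the library with lens RNA, and at 45.1 and 35.6 CPM in treated OIR mice 5 and 10, against 30.8, 38.0, and 35.4 CPM in OIR mice. Whether the lens RNA bears on its fold change was not tested.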

How the data were processed

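Retinal RNA of 9 mice, 3 per group, was analysed, and each mouse was 1 replicate. The labels give no litter or date, so p-values measure the spread between these mice. The authors deposited 1 table of raw, unnormalized counts of genes. Their processing notes name CASAVA and HISAT without versions, and the counting tool, annotation, and strand setting are not given in the sources used here. In GENCODE M21, 54409 identifiers of the table were found, 98.3% at an identical start and end, 33 of the 34 members among them, so coordinates are on GRCm38. Of the members, 14 overlap a gene annotated on the other strand, and their counts are uncertain if counting ignored strand.

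Counts were fitted with edgeR 4.0.16 in R 4.3.3, using TMM factors, its default filter by group (17540 genes kept), and 1 mean per group over all 9 mice in the quasi-likelihood model. P-values were adjusted over all genes tested (Benjamini-Hochberg), and an adjusted p below 0.05 was a call. CPM used TMM-scaled library sizes, RPKM the deposited gene lengths, and log2 CPM a prior count of 2. The SE is the log2 fold change divided by the square root of the F statistic. No 2 mice's counts were copies of each other. Promoters were RefSeq's. Another rod marker of the tissue check is not reported here.

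The members, the lists, and the tests were chosen with earlier results of these data known. Described in most detail were Mki67, Top2a, members with an adjusted p below 0.05, the 6 members with the smallest p in each comparison, and, from 4 lists of other cell cycle genes, those that passed and the 3 with the smallest p. Alternatives were DESeq2 1.42.0, limma 3.58.1 (voom with quality weights), other scalings, filters, and prior counts, a limit of 1 on the absolute log2 fold change, and leaving out each mouse. Those added after the data were seen were leaving out control mouse 1 and treated OIR mouse 2 together, DESeq2 and limma-voom without control mouse 1, and sex as a covariate. The fits were tested on simulated counts. Figures were made with Python 3.11.15 and matplotlib 3.10.9.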

Additional observations from a re-analysis of the deposited data

How the results depend on the processing

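The comparisons with control depended on which control mice entered, and the number of members called depended on the tool once it was left out. With all 9 mice edgeR called 0.941%, 0.0228%, and 0% of all genes in the 3 comparisons, and without control mouse 1 it called 0% in both comparisons with control. In OIR against control, 0 members were called with each single mouse left out in turn, and the median log2 fold change over the members ran from 0.032 without control mouse 7 to 1.02 without control mouse 1. For fits that left out another single mouse, the share of all genes called is not given here, in any comparison. Their counts of 0 therefore say little about the members. In treated OIR against control the count was again 0 and the median ran from 0.02 without control mouse 7 to 0.90 without control mouse 1, and in treated OIR against OIR the count was 0 and the median ran from -0.19 without treated OIR mouse 2 to 0.12 without OIR mouse 6. The OIR median was also 0.092 without control mouse 6 and 0.07 without OIR mouse 6, and the treated OIR median 0.027 without control mouse 6 and 0.18 without treated OIR mouse 2. With all 9 mice, limma-voom gave medians of 0.79, 0.61, and -0.13 in the 3 comparisons. Counts of at least 10 in every mouse, which left 19 members, gave 0.17 in OIR and 0.13 in treated OIR against control. Scaling by total counts alone gave -0.15 in treated OIR against OIR, and sex as a covariate gave -0.22. Differences in mean log2 CPM over the members ran from 0.29 to 1.32, from 0.28 to 1.31, and from -0.14 to 0.16 in these comparisons. Chosen after seeing the data, leaving out control mouse 1 and treated OIR mouse 2 together gave 10 members called, where 4.59% of all genes were called higher, and a median of 1.01 in OIR. Without control mouse 1, DESeq2 gave 12 called and a median of 1.03 in OIR and 6 called in treated OIR, and limma-voom gave 3 called and a median of 1.14 in OIR and a median of 0.98 in treated OIR. With all 9 mice limma-voom called 1 member in treated OIR against control. The cause was not tested.

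With a single mouse left out, up to 11 of the 34 members changed direction in OIR (without control mouse 7), up to 9 in treated OIR against control (without control mouse 6 or 7), and up to 11 in treated OIR against OIR (without OIR mouse 6). Among the 24 pairs of a member and a comparison described in most detail, 12 of 421 alternative values changed direction. All 12 were in Mki67 and Top2a, and the 421 leave out the fits added after the data were seen. In OIR against control, Mki67 was at -0.35 without control mouse 6, -0.44 without control mouse 7, and -0.22 without OIR mouse 6, and Top2a was at -0.0042 without control mouse 7 and -0.16 without OIR mouse 6. In treated OIR against control, Mki67 was at 1.34 with limma-voom, 2.72 without control mouse 1, and 0.10 without treated OIR mouse 5, and Top2a was at -0.19 without control mouse 6 and -0.24 without control mouse 7. In treated OIR against OIR without OIR mouse 6, Mki67 was at 0.061 and Top2a at 0.49. With each mouse left out in turn, Mki67 and Top2a reached up to 2.99 and 4.42 in OIR and, for Top2a, 4.18 in treated OIR, all without control mouse 1, and fell to -0.71 for Mki67 in treated OIR without control mouse 7. In treated OIR against OIR their lowest values were -0.60 without treated OIR mouse 10 and -0.55 without OIR mouse 3. In the 200 bases before the start, the CHR core was in 36.7% of the members' promoters against 13.4% of all promoters, and on the given strand alone CCAAT was in 56.7% against 21.1%. Apart from the treated OIR against OIR medians and mean differences, which crossed 0 within the ranges above, the remaining alternatives kept the direction of each median and difference, and they called 0 members. Where the share of all genes called by such an alternative is not stated above, it is not given here. No paired analysis was possible because the groups share at most 1 replicate number, which numbers separate animals. Members with few counts per mouse, such as Bub1, Hmmr, Aurkb, and Ccnb1, are limited by depth as well as by 3 mice per group.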
